A study of Mus musculus with 5 samples.

Results

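Among the epithelial cells of mouse PyMT mammary tumours, those with the most Krt14 and Krt5 transcript were examined. Krt14 and Krt5 encode a keratin pair that marks the basal layer of stratified and mammary epithelium. A cell was taken as epithelial when Krt8, Krt18 and Epcam together gave at least 8 unique molecular identifiers (UMIs) per 10000 UMIs of the cell. The score of a cell was the mean of ln(1 + UMIs per 10000) of Krt14 and of Krt5, and cells were selected on this score, above the 97th percentile of the epithelial cells of their own library. This gave 367 cells of 12151 epithelial cells, among 15958 cells in all, and they are called basal keratin cells below. The remaining 11784 epithelial cells are called the other epithelial cells. Because the rule takes the top of each library, a share near 3% of the epithelial cells was set by the rule and is not a result.

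PyMT mice carry the polyoma virus middle T antigen in the mammary epithelium and develop mammary tumours. The labels give a digest of these tumours with enrichment of viable cells, and they give no strain, age or number of animals, so whether the libraries come from separate animals is not known and p-values measure only the spread between these libraries. There were 2 fresh libraries and 1 stored library on 10x Chromium 3' v2, which captures cells in droplets, and 2 whole-transcriptome libraries on BD Rhapsody, which captures them in microwells. The stored digest was held overnight at 4 °C, which its title gives as 24 h, and it was used after its viability had fallen. The title of the second BD library says fresh while its deposited file is named for storage, so no storage state was assumed for it. In the order fresh 10x 1, fresh 10x 2, stored 10x, BD 1 and BD 2, which is kept for all values below, the libraries held 1448, 1472, 3196, 2832 and 3203 epithelial cells, and their cells of all kinds held 29166129, 30027178, 53381382, 59957945 and 49966022 UMIs. At most 24 cell barcodes were shared by any pair of libraries, and 0 of those were shared among the basal keratin cells.

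The mammary epithelium has an inner luminal layer, which makes milk and expresses Krt8 and Krt18, and an outer basal layer. Most basal cells of the adult gland are myoepithelial: they hold the transcription factor p63 (Trp63), Krt14 and Krt5, sit on the basement membrane and contract through smooth muscle actin (Acta2) and smooth muscle myosin (Myh11). PyMT tumours are known as luminal tumours in which the myoepithelial layer is lost as they progress, and single tumour cells can hold basal keratins beside luminal ones. The values below ask whether the cells with most Krt14 and Krt5 carried the contractile genes, the rest of the basal genes, or the luminal genes.

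The 2 keratins of the rule were not found together in most of these cells. Krt14 was detected in 360 of the 367 cells and Krt5 in 174, so the label of a Krt14 and Krt5 cell held for both genes in 167 cells. A further 193 cells had Krt14 alone and 7 had Krt5 alone. By library, 42 of 44, 24 of 45, 50 of 96, 21 of 85 and 30 of 97 cells had both. Nearly all chosen cells of the first fresh 10x library were thus positive for both keratins. Its score threshold was also the highest, at 2.15 against at most 1.22 elsewhere. A cell with Krt14 alone needs more Krt14 to pass a higher threshold. The share with both keratins therefore depends on the rule and is not read as a trait of the library.

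The amount of keratin behind the choice also differed between libraries. The median basal keratin cell held 49.5, 29, 20, 8 and 5 Krt14 UMIs, and 14.5, 1, 1, 0 and 0 Krt5 UMIs. In all, 29 cells held fewer than 3 UMIs of both genes together, 19 of them in BD 2. The score threshold was 2.15, 1.22, 1.21, 0.678 and 0.602. Cells just inside and just outside it differed little: in fresh 10x 1 the scores were 2.19 and 2.10, with 60 and 46 Krt14 UMIs. In BD 2 the last cell inside had 1 Krt14 and 1 Krt5 UMI at a score of 0.602 and the first outside had 4 Krt14 UMIs at 0.601. At the single threshold of fresh 10x 1, the share of epithelial cells above it was 3.04% (95% exact binomial interval 2.22 to 4.06) in fresh 10x 1 and 1.49% (0.939 to 2.25) in fresh 10x 2. It was 1.10% (0.764 to 1.52) in stored 10x, 0.388% (0.194 to 0.694) in BD 1 and 0.687% (0.431 to 1.04) in BD 2. The intervals cover counting error only. Both BD shares lay below all 3 10x shares. The cells taken on BD thus reached down to lower keratin levels than those taken on 10x.

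**Figure D1:**
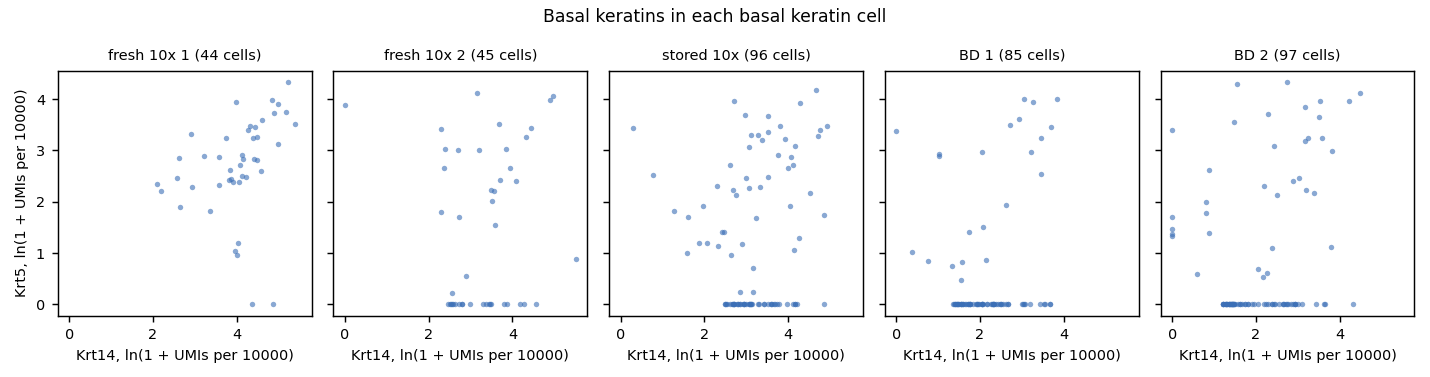
Krt14 (x axis) and Krt5 (y axis) in each basal keratin cell, each as ln(1 + UMIs per 10000 of the cell), with 1 point per cell and 1 panel per library. In fresh 10x 1, 42 of 44 cells lie above 0 on both axes, and the row of cells with Krt14 and no Krt5 along the foot holds 63 cells in BD 1 and 62 in BD 2.

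For levels, the UMIs of a gene were summed over the basal keratin cells of a library, divided by their total and given per 10000 UMIs, and likewise for the other epithelial cells. For the 5 genes of the rule these levels are a description. Krt14 (chr11:100203162-100207548, minus strand, GRCm38) was at 65.3, 28.0, 27.1, 9.48 and 10.3 per 10000 in the basal keratin cells and at 0.645, 0.348, 0.348, 0.0998 and 0.0646 in the other epithelial cells. Krt5 (chr15:101707070-101712898, minus strand) was at 19.1, 8.76, 6.91, 3.79 and 7.59, against 0.0151, 0.00392, 0.0109, 0.00466 and 0.00536. Any UMI of either gene was found in 19.1%, 16.2%, 18.8%, 9.83% and 6.60% of the other epithelial cells. At 2000 UMIs per cell these shares were 6.82%, 4.35%, 5.08%, 1.78% and 1.17%, and the share in cells gated as macrophages or T cells, which should lack both keratins, was at most 2.41% in any library. As both genes chose the cells, nothing further is read from these shares.

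Luminal keratins were present in the chosen cells. Krt8, the type II keratin of simple epithelium, was at 6.05, 18.8, 16.8, 13.9 and 11 per 10000 in the basal keratin cells and at 14.7, 15.3, 14.2, 8.88 and 5.93 in the other epithelial cells. It was lower in fresh 10x 1 and higher in the other 4 libraries. Its partner Krt18 was at 4.62, 15.7, 13.4, 8.99 and 7.44, against 18.6, 19.1, 15.5, 7.33 and 5.97, so it was lower in all 3 10x libraries and higher in both BD libraries. The gate counts these 2 genes together with Epcam, so it removes cells that hold little of all 3.

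Genes outside the rule were tested over the 5 libraries with edgeR's quasi-likelihood test on the summed counts, with the library as a block and Benjamini-Hochberg adjustment over 5998 genes. A log2 fold change is basal keratin cells over other epithelial cells, and the threshold was an adjusted p of 0.05. Of all genes tested, 17.6% were higher in the basal keratin cells and 18.5% were lower (36.1% in either direction), and the median log2 fold change was -0.02. Gene lists are read against these shares. A gene below the abundance minimum of 20 CPM (counts scaled to a common library total) was not tested.

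The contractile genes rose as a group, most of them from a low base. Tpm1 and Cald1 were exceptions, at 2.28 and 1.99 per 10000 and in 76.4% and 62.4% of the other epithelial cells. All 8 tested of the 14 genes in the contractile list were higher (17.6% of all genes), with a median log2 fold change of 3.07. Acta2, Tagln, Myl9, Mylk and Tpm2 lay below the abundance minimum in the other epithelial cells. They passed it only through the basal keratin cells, so the filter largely set their rise. Smtn, Cald1 and Tpm1 reached the minimum in the other epithelial cells too. When the abundance minimum was dropped from the fit, 3 of the 6 left-out genes were higher (5.59% of all genes in that fit) and 0 were lower. Acta2 (chr19:34241090-34255590, minus strand), which encodes the smooth muscle actin of myoepithelial cells, was at 3.34, 4.54, 3.37, 0.505 and 0.327 per 10000 in the basal keratin cells and at 0.0728, 0.0294, 0.0480, 0.0150 and 0.00975 in the other epithelial cells. The 2 sets of values did not overlap, and both BD libraries were lower than the 10x libraries in either kind of cell. The log2 fold change was 5.94 (SE 0.29, adjusted p = 2.77e-07, edgeR quasi-likelihood test).

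Myl9, a regulatory light chain of smooth muscle myosin, was at 1.65, 1.24, 1.33, 0.323 and 0.535 per 10000 against 0.0320, 0.0204, 0.0367, 0.0155 and 0.00999, also without overlap. Myl9 rose by a log2 fold change of 5.36 (SE 0.24, adjusted p = 1.76e-07 by edgeR). The actin-binding gene Tagln was at 2.21, 0.915, 0.538, 0.118 and 0.120 against at most 0.0715, and 41.3% to 80.0% of its UMIs in a library came from 1 cell. The log2 fold change of Tagln was 4.29 and that of tropomyosin Tpm2 was 3.95. Myosin light chain kinase Mylk rose by 2.20, Smtn by 1.54, Cald1 by 1.24 and Tpm1 by 1.14 on the same scale.

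Myh11 (chr16:14194535-14291372, minus strand), the smooth muscle myosin heavy chain, was nearly undetected. The basal keratin cells held 2, 17, 4, 0 and 0 Myh11 UMIs, in 7 cells in all, which was below the abundance minimum of the test. None was seen in 85 cells of BD 1 or in 97 cells of BD 2, which allows a share of cells with a UMI of up to 3.53% and 3.09%. Calponin (Cnn1) gave 4 UMIs in 3 cells, and Actg2 and Synpo2 gave 2 UMIs each. The oxytocin receptor Oxtr, through which myoepithelial cells respond to suckling, was below the minimum as well, but its 107 UMIs lay in 61 cells. It was at 0.664, 0.271, 0.273, 0.158 and 0.131 per 10000 against 0.0173, 0.0294, 0.0240, 0.0153 and 0.0144. These values did not overlap. In an edgeR fit without the abundance minimum its log2 fold change was 3.55 (adjusted p = 1.46e-09), and that of Myh11 was 4.82 (adjusted p = 0.000224).

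**Figure D2:**
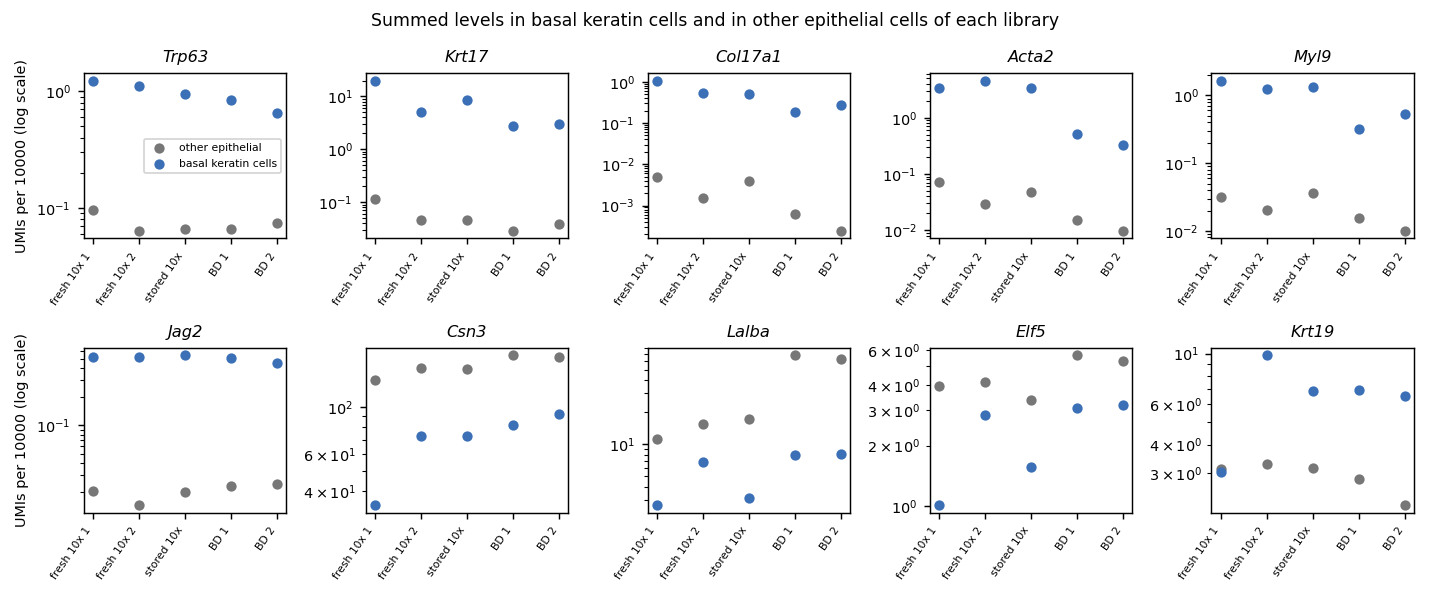
Level of 10 genes (y axis, UMIs per 10000, log scale) in each library (x axis), in the basal keratin cells (blue) and the other epithelial cells (grey). Acta2, Trp63 and Krt17 are higher in the basal keratin cells of 5 of 5 libraries, Csn3 is lower in 5 of 5, and Krt19 is higher in 4 of 5.

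High contractile counts lay in few cells. The UMIs of 6 markers (Acta2, Myh11, Tagln, Mylk, Cnn1 and Oxtr) were summed per cell. Of the 367 basal keratin cells, 200 had 0 UMIs of these genes and 30 had 10 or more, and 7 cells held both Acta2 and Myh11. In the other epithelial cells 26 of 11784 had 10 or more. Cells gated as mural by Rgs5, Notch3 and Pdgfrb, the contractile cells of vessel walls, gave a reference within the same libraries: 135 of 310 had 10 or more, and 86 held both Acta2 and Myh11. Trp63 was found in 145 basal keratin cells, in 16 of the 30 with 10 or more contractile UMIs, and in 2 mural-gated cells.

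Luminal keratins in the strongly contractile cells are given as a description, since the gate used them. In the 30 cells with 10 or more contractile UMIs, the median of Krt8 plus Krt18 was 10.3, 11.5, 13.6, 6.16 and 11.2 per 10000, against 7.68, 14.7, 15.0, 9.02 and 7.82 over all basal keratin cells. It was 28.3, 28.5, 23.3, 12.3 and 9.26 in the other epithelial cells and 0, 0, 0.828, 0 and 0 in the mural-gated cells. The value of 11.2 for BD 2 is 1 cell. The 12 cells with 10 or more contractile UMIs and a passing keratin score that failed the gate had medians of 3.01, 3.09, 1.88 and 1.57 in fresh 10x 1, stored 10x, BD 1 and BD 2.

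**Figure D3:**
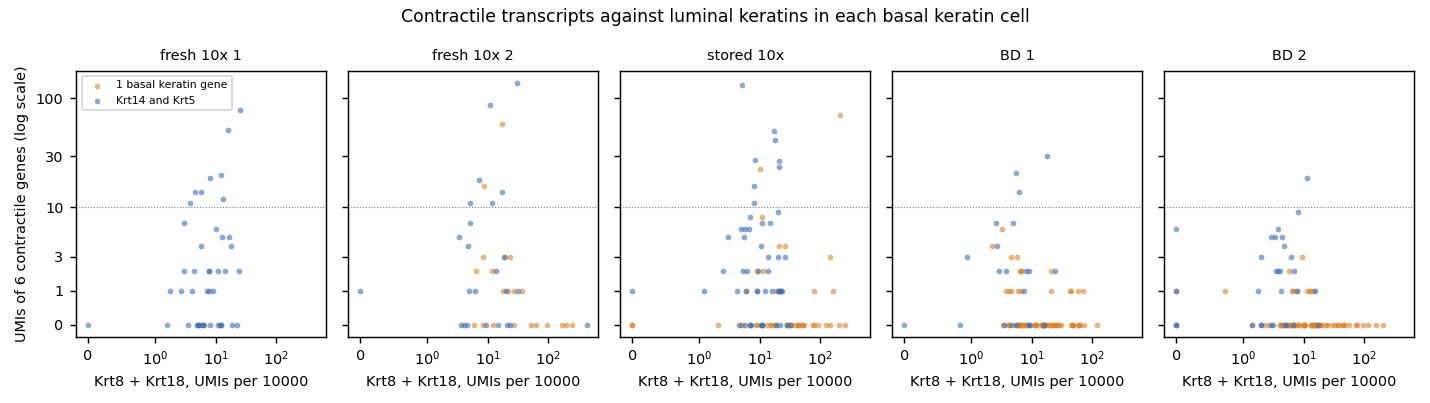
Summed UMIs of the 6 contractile markers (y axis, log scale of 1 + UMIs) against Krt8 plus Krt18 (x axis, UMIs per 10000, log scale above 1) in each basal keratin cell, with 1 panel per library, cells with both keratins in blue and the rest in orange. Of 367 cells, 200 lie at 0 on the y axis, and the cells on or above the dotted line at 10 UMIs number 8, 8, 10, 3 and 1.

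Because depth differed between cells, shares of cells with a UMI were also computed after each cell was brought to 2000 UMIs, which left out 15 basal keratin cells. At that depth Acta2 was found in 22.8%, 21.1%, 19.1%, 5.38% and 5.56% of the basal keratin cells and in 1.01%, 0.429%, 0.576%, 0.267% and 0.222% of the other epithelial cells. Unthinned shares were 27.3%, 26.7%, 25.0%, 14.1% and 9.28%, against 4.63%, 3.22%, 2.74%, 1.78% and 1.22%. Macrophage-gated cells (C1qa, C1qb and C1qc), which should lack Acta2, gave 2.79%, 1.36%, 1.15%, 0.524% and 0.270% at the equal depth, above the other epithelial cells in every library. T-gated cells (Cd3d, Cd3e and Cd3g), which should lack it too, gave 0.200% in fresh 10x 1, 0.521% in stored 10x and 1.13% in BD 2 and no Acta2 at that depth in the remaining libraries, below the other epithelial cells in 4 of 5. The 2 references thus lay on either side, and the low share in the other epithelial cells is not told apart from background, although 13 of those cells held 10 or more Acta2 UMIs. The median macrophage-gated cell held 6028, 5501, 5391.5, 12055 and 8026 UMIs before thinning. The share in the basal keratin cells was higher by 14.3 ± 8.34 percentage points (SD over 5 libraries), in 5 of 5.

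For any contractile marker the difference was 24.3 ± 12.1 percentage points and for Tagln 5.75 ± 5.38, both in 5 of 5 libraries. Trp63 differed by 16.1 ± 5.44 and Krt17 by 34.6 ± 18.5 percentage points, again in 5 of 5. Each of these 5 differences had p = 0.0625 in an exact two-sided sign-flip permutation test, which is the smallest p that 5 libraries allow. Myh11 was higher in 3 of 5 libraries, by 0.861 ± 0.860 percentage points (exact permutation p = 0.25), a difference about as large as its spread. The 6 tests were one family and none passes 0.05 with or without adjustment.

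**Figure D4:**
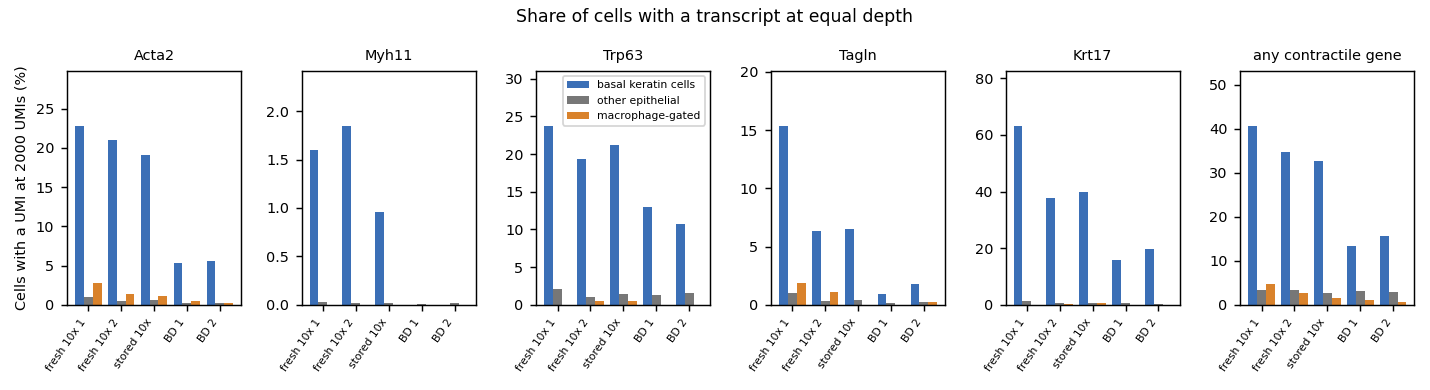
Share of cells with at least 1 UMI at 2000 UMIs per cell (percent), per library, in the basal keratin cells, the other epithelial cells and the macrophage-gated cells, drawn as bars. Acta2 shares lie between 19.1% and 22.8% in the 10x libraries and at 5.38% and 5.56% in the BD libraries, and Myh11 shares reach at most 1.84% in the basal keratin cells.

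Beyond the contractile genes, the basal identity genes were broadly higher. Trp63 (chr16:25683763-25892102, plus strand), the p63 gene that is required for basal epithelium, was at 1.23, 1.10, 0.939, 0.844 and 0.655 per 10000 in the basal keratin cells and at 0.0959, 0.0634, 0.0660, 0.0659 and 0.0746 in the other epithelial cells. Every basal keratin value exceeded every value of the other epithelial cells, and the BD values were the lowest of the basal keratin cells. The log2 fold change was 3.67 (SE 0.15, adjusted p = 9.09e-08, edgeR quasi-likelihood test). Of the 16 tested genes in the list of basal regulators, ligands and receptors, 12 were higher (17.6% of all genes) and 1 was lower (18.5% of all genes). The median log2 fold change was 1.91. Trp63, Snai2, Jag2, Igfbp2, Igfbp3, Mme, Il17b and Cxcl14 lay below the abundance minimum in the other epithelial cells, so the filter favoured a rise for them.

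Among these regulators, Snai2, a repressor of epithelial genes expressed in basal mammary cells, rose by 4.85 on the log2 scale. The Notch ligand gene Jag2 was at 0.516, 0.525, 0.546, 0.512 and 0.447 per 10000 against 0.0145 to 0.0241, so it was nearly constant across libraries, and its log2 fold change was 4.62 (SE 0.25, adjusted p = 5.29e-07 by edgeR). Il17b, a cytokine gene, rose by 3.41, the insulin-like growth factor binding proteins Igfbp3 and Igfbp2 by 3.61 and 2.27, and the chemokine Cxcl14 by 2.83. The receptor Egfr rose by 0.86 and the surface peptidase Mme (CD10) by 0.72. Apoe, an apolipoprotein that macrophages also express, rose by 2.93 and ranged from 2.19 to 56.2 per 10000 over the libraries, with its highest level in fresh 10x 1, where 1 cell gave 14.9% of its UMIs. The tetraspanin Tspan8 was the member that fell, by 1.57 on the log2 scale. Sox10, Dll1 and Igfbp5 did not pass the threshold.

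All 13 tested genes of the 20 in the adhesion and basement membrane list were higher (17.6% of all genes), with a median log2 fold change of 2.12. Of the 7 left out by the minimum, 3 were higher in the fit without it (5.59% of all genes in that fit) and 0 were lower. Col17a1 (chr19:47646344-47692094, minus strand), the transmembrane collagen of hemidesmosomes, was at 1.06, 0.542, 0.503, 0.181 and 0.273 per 10000 against at most 0.00505 in the other epithelial cells, where it gave 38 UMIs in 32 of 11784 cells. Its log2 fold change was 7.85 (SE 0.44, adjusted p = 5.75e-07 by edgeR). The laminin chain genes Lama3 and Lamb3, whose products anchor epithelium to the basement membrane, rose by 5.51 and 1.48. Cdh3, the P-cadherin of basal cells, rose by 4.97, Cav1 by 3.45 and the desmosomal gene Pkp1 by 2.83. Integrins rose less, with 2.12 for Itga3, 1.22 for Itgb4, 1.17 for Itga6 and 0.70 for Itgb1.

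Of 23 genes in the list of other basal and stratified keratins and their partners, 10 could be tested. Of these, 8 were higher (17.6% of all genes), Fabp5 fell by 0.86 and Dmkn did not pass the threshold, with a list median of 1.68. Krt17, Krt15 and Calml3 lay below the abundance minimum in the other epithelial cells, so the filter favoured a rise for them. Krt17 (chr11:100256217-100261029, minus strand), a keratin of basal and injured epithelium that neighbours Krt14, was at 19.8, 5.02, 8.75, 2.81 and 2.97 per 10000 against 0.115, 0.0462, 0.0469, 0.0286 and 0.0383, without overlap. Its log2 fold change was 6.94 (SE 0.20, adjusted p = 2.23e-08 by edgeR). Krt14, Krt17 and other keratins are close relatives, and whether reads were split between them was not tested. Krt15 rose by 5.57, Lgals7 (galectin-7) by 3.83, Perp by 2.18 and Sfn (14-3-3 sigma) by 1.96. The other 13 genes, keratins and envelope genes of wounded or cornified epithelium among them, were below the minimum. In the fit without it 2 of the 11 of these with UMIs were higher (5.59% of all genes in that fit), Krt16 with a log2 fold change of 4.24 (adjusted p = 2.11e-08 by edgeR) and Sprr1a with 3.59 (adjusted p = 0.0118). Krt16 gave 91 UMIs in 21 basal keratin cells and 191 in 31 other epithelial cells, and Krt6a gave 24 UMIs, all in 1 cell of BD 1.

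The 10 genes with the largest rise in the same direction in all 5 libraries were Sostdc1, Col17a1, Krt17, Fst, Acta2, H19, Krt15, Lama3, Myl9 and Col7a1. A common direction in all 5 libraries and a call was seen for 32.3% of all genes tested. Sostdc1, a secreted BMP and Wnt antagonist, gave 200 UMIs in 62 basal keratin cells and 24 UMIs in 20 other epithelial cells. Sostdc1 had the largest log2 fold change of these, 8.51 (SE 0.44, adjusted p = 4.08e-07 by edgeR). Fst, follistatin, which binds activin, rose by 6.74 and was found in 89 basal keratin cells. Col7a1, the anchoring fibril collagen, was at 1.92, 0.949, 1.23, 0.938 and 0.873 per 10000 against 0.0234 to 0.0379 and rose by 5.35 (SE 0.14, adjusted p = 1.6e-08 by edgeR). The imprinted transcript H19 rose by 5.92, but it was found in 27 cells and 1 cell gave 25.0% to 100% of its UMIs in a library.

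A pair of promoter windows is shown, for Krt5, a gene of the rule, and for Myl9, a contractile gene that rose, since p63 is known to bind p53-family sites and serum response factor is known to bind CArG boxes in smooth muscle genes. The windows come from the 250 bases before the RefSeq start of the gene in GRCm38.p6. All 250 bases are shown for Krt5, at chr15:101712906-101713155 (minus strand). For Myl9 206 bases are shown, at chr2:156775214-156775419 (plus strand). The Myl9 bases from the first GENCODE exon up to the RefSeq start are not shown. Distances below are counted from the RefSeq start, so for Myl9 they do not run from the end of the printed bases. Capitals mark the match, a p53-family half-site that begins 95 bases before the start of Krt5 and a CArG box that begins 161 bases before the start of Myl9:
Krt5: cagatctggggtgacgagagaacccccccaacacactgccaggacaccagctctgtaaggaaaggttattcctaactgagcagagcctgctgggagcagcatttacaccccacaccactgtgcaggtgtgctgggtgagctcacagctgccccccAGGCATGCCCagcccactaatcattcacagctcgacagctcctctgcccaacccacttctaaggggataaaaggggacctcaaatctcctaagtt
Myl9: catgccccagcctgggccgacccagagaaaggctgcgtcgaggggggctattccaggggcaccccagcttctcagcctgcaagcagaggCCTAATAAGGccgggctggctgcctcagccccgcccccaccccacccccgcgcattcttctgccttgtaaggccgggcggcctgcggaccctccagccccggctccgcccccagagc
Each motif reads the same on both strands, and the matches of the 2 motifs do not overlap. A p53-family half-site is in 7.13% and a CArG box in 1.47% of 32851 RefSeq windows of 250 bases, so a match is a description of the letters and not evidence of binding.

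The luminal program was lower but present. Of 21 tested genes in the luminal progenitor and alveolar list, 14 were lower (18.5% of all genes), 3 were higher and 4 did not pass (Ltf, Spp1, Cldn4 and Tfap2b), with a median log2 fold change of -1.01. Csn3, kappa-casein of milk, was at 34.3, 72.8, 72.8, 81.7 and 92.5 per 10000 in the basal keratin cells and at 134, 153, 151, 175 and 171 in the other epithelial cells. The values did not overlap, and Csn3 was detected in 356 of the 367 basal keratin cells. Its log2 fold change was -1.23 (SE 0.12, adjusted p = 3.33e-05, edgeR quasi-likelihood test). How much of it is background RNA was not tested.

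The milk protein genes fell. Wap, whey acidic protein, fell by 3.55 on the log2 scale, Csn1s2a by 3.87, Csn2 by 3.27 and Lalba by 2.39. Elf5, the alveolar transcription factor, was at 1.01, 2.83, 1.56, 3.06 and 3.20 per 10000 against 3.97, 4.16, 3.39, 5.64 and 5.28 and fell by 1.01, and the progenitor receptor Kit fell by 0.90. The simple-epithelial keratin Krt7 was higher, by 1.82, in 5 of 5 libraries. Mfge8 rose by 0.46. Aldh1a3, a progenitor enzyme, rose by 1.83 (adjusted p = 0.0356 by edgeR) with a higher level in 3 of 5 libraries, and this call was lost without either BD library (log2 fold change 0.94 without BD 1 and 1.65 without BD 2) and with DESeq2 (0.70).

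In the hormone-sensing luminal list 5 of 14 genes could be tested, with a median log2 fold change of -0.69. Of these, 3 were lower (18.5% of all genes), 1 was higher (17.6% of all genes) and Ly6a did not pass. Prlr, the prolactin receptor, fell by 1.44, Cited4 by 1.07 and the luminal transcription factor Gata3 by 0.69. Krt19, a keratin of luminal cells, was at 3.02, 9.86, 6.84, 6.94 and 6.51 per 10000 against 3.13, 3.29, 3.16, 2.84 and 2.17. It was higher in 4 of 5 libraries and slightly lower in fresh 10x 1, and its log2 fold change was 1.13 (SE 0.19, adjusted p = 0.00119 by edgeR). With 1 score threshold for all libraries that value was -0.01 (adjusted p = 0.978). The oestrogen receptor Esr1 was found in 14 cells and the progesterone receptor Pgr in 1, below the minimum.

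The 10 genes with the largest fall in the same direction in all 5 libraries were Cartpt, Pip, Glycam1, 2310057J18Rik, Csn1s2a, Wap, Csn2, Scgb1b27, Lao1 and Car6. Pip, prolactin-induced protein, fell by 5.10 and Glycam1, a milk mucin, by 4.72 on the log2 scale. Cartpt, a neuropeptide gene, gave 0 UMIs in the basal keratin cells and 6319 in 117 of the 11784 other epithelial cells (0.993%). At that share few of the 367 basal keratin cells would hold it, and its UMIs are not independent counts, so no bound on the fold is drawn. Of the 6319 UMIs 4574 were from fresh 10x 2. With cells above the 95th percentile taken, its log2 fold change was 0.68 and did not pass (adjusted p = 0.654 by edgeR), so this fall depended on the threshold. Single cells weighed on these values. Of the UMIs in the other epithelial cells of a library, 1 cell gave 26.3% to 50.1% for Cartpt and 24.8% to 72.2% for Pip. For Glycam1 it gave 16.6% to 60.1%.

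Of 6 tested genes in the list on epithelial to mesenchymal transition, 4 were higher (17.6% of all genes), with a median log2 fold change of 2.30. They included the intermediate filament Vim (1.59) and the matrix genes Sparc (3.51) and Tnc (3.01). Normal basal mammary cells are also known to express Vim and Sparc. Cdh1, E-cadherin, was at 0.762, 0.796, 1.13, 2.64 and 2.45 per 10000 against 0.845, 0.818, 0.994, 1.87 and 1.74, and its log2 fold change of 0.24 did not pass the threshold (adjusted p = 0.111 by edgeR). Fn1, fibronectin, did not pass either. The other 7 genes of the list were below the minimum. In the fit without it, 2 of them were higher, Cdh2 and Tgfbi (5.59% of all genes in that fit). The transcription factor genes Zeb1, Zeb2, Snai1, Twist1 and Twist2 did not pass there, so a transition is not read from this list.

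Fibroblast markers were high in single basal keratin cells of fresh 10x 2 and BD 1, and their sum had no common direction over the libraries. The 7 fibroblast genes summed to 3.0, 23.5, 1.69, 13.0 and 1.53 per 10000 in the basal keratin cells and to 1.39, 0.694, 4.48, 3.83 and 3.51 in the other epithelial cells. In fresh 10x 2 and BD 1, 95.9% and 88.5% of that came from 1 cell, and without it the sums were 0.966 and 1.49. None of the 4 tested fibroblast genes (Col1a1, Col1a2, Col3a1 and Dcn) passed the threshold, with a median log2 fold change of 1.13. Without all cells that held 5 or more UMIs over 10 stromal, vascular and immune genes, 24 of them basal keratin cells, the log2 fold change was 4.61 for Sparc, 1.86 for Vim and 2.81 for Tnc, and it was 6.67 for Acta2 and 4.75 for Apoe.

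Cell cycle genes were lower: 9 of 15 tested fell (18.5% of all genes), with a median log2 fold change of -0.56. Another 2 were higher (17.6% of all genes), Cdkn1a by 0.68 and Tubb5 by 0.34, and 4 did not pass (Ccnb1, Ccnb2, Ube2c and Cenpf). Mki67, a marker of cycling cells, was at 0.320, 0.339, 0.392, 0.473 and 0.425 per 10000 against 0.597, 0.753, 0.577, 0.632 and 0.705. The values did not overlap, and it fell by 0.71 (SE 0.12, adjusted p = 0.00121 by edgeR). The replication helicase genes Mcm6 and Mcm5 fell by 1.26 and 1.09, and Top2a by 0.56. In the basal keratin cells Mcm6 and Mcm5 lay below the abundance minimum, so the filter favoured a fall for them. Mki67 was found in 39 basal keratin cells, and 1 cell gave 92.3% of its UMIs in fresh 10x 1.

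Depth differed between the 2 kinds of cell. The basal keratin cells had a median of 7704.5, 10779, 8711, 11007 and 7043 UMIs, below the 12059.5, 12736, 10361.5, 13361 and 10294.5 of the other epithelial cells in every library. Mitochondrial genes took a median of 7.33%, 6.99%, 7.45%, 15.8% and 20.1%, against 6.65%, 7.47%, 7.51%, 16% and 20.1%. Of 10 dissociation genes, 3 were higher (17.6% of all genes) and 7 did not pass, with a median of 0.14. The 3 were Dusp1 (0.56), Fosb (0.38) and Egr1 (0.25). The 9 mural markers summed to 0.516, 1.22, 0.341, 0.938 and 0.840 per 10000, against 0.416, 0.379, 0.360, 0.662 and 0.638, and Cspg4 was at 0 in the basal keratin cells of 4 of 5 libraries. In fresh 10x 2, 79.2% of the mural sum came from 1 cell, and without it the sum was 0.254. Notch3, the mural gene that could be tested, did not pass. In the fit without the minimum the pericyte gene Rgs5 was higher (log2 fold change 2.76, adjusted p = 0.00502 by edgeR), with 83 UMIs in 6 basal keratin cells. The 7 macrophage markers summed to 3.1, 0.169, 0.205, 0.922 and 1.43, against 0.243, 1.29, 0.757, 0.622 and 0.661, and 98.4% of the sum in fresh 10x 1 came from 1 cell. Lyz2, the one tested, did not pass. The sums of the endothelial and of the T and NK markers were lower than in the other epithelial cells in every library, with Cd3e at 0 in 5 of 5 libraries and Kdr in 4 of 5. The part of depth and of mural RNA in the results was not tested beyond leaving out cells under 2000 UMIs and cells of mixed type.

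Whether the difference between basal keratin and other epithelial cells depended on platform or storage was tested as an interaction. With edgeR's quasi-likelihood test, 0 of 5998 genes passed for platform (405 at an unadjusted p under 0.05, lowest adjusted p 0.138) and 0 for storage (177, lowest adjusted p 0.297), which is 0% of the genes tested. With 1 stored library and 2 to 3 libraries a side, the lack of calls does not show that the differences were alike. Without BD 2, 7 genes passed for platform: Car6, Clu, S100g and Aldh1a3 with a higher log2 difference on BD, and Dcn, Krt15 and Fst with a lower one. For storage Dcn and Dcpp1 passed, 2 genes. These fits rest on a single BD and a single stored library, which are assumed to vary like the fresh 10x libraries, and the genes are named after their values were seen.

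The cells with both keratins and those with Krt14 alone differed in what else they held. This split was made after the values were seen and is a description without a test, and Krt14 alone in fresh 10x 1 is 2 cells. Col17a1 was at 1.10, 0.971, 0.761, 0.455 and 0.777 per 10000 in cells with both keratins and at 0, 0.0750, 0.126, 0.0791 and 0.0494 in cells with Krt14 alone. Acta2 was at 3.49, 7.60, 4.23, 1.54 and 1.06 with both and at 0, 1.24, 2.10, 0.113 and 0 with Krt14 alone. The level was higher with both keratins in every library for Col17a1 and Acta2. Other basal genes did not all follow, and Sfn and Itgb4 had no common direction. Sfn was at 15.4, 13.9, 14.5, 19.4 and 18.7 with both keratins. With Krt14 alone it was at 32.1, 12.3, 21.6, 15.3 and 7.03. Of the 30 cells with 10 or more contractile UMIs, 26 had both keratins.

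Luminal keratins went the opposite way to Col17a1 and Acta2. Krt8 was at 5.98, 16, 8.33, 5.74 and 4.77 per 10000 with both keratins and at 7.73, 22.9, 29.3, 17.6 and 14.1 with Krt14 alone, so it was higher with Krt14 alone in every library. Krt19 was at 2.80, 7.67, 2.93, 5.71 and 1.70 with both and at 8.32, 12.9, 12.6, 7.63 and 8.88 with Krt14 alone. The level of Trp63 did not separate in the same way. It was at 1.21, 1.36, 0.761, 1.42 and 1.73 with both and 1.78, 0.675, 1.20, 0.610 and 0.132 with Krt14 alone. At equal depth, however, Trp63 was found in 23.6%, 22.4%, 23.9%, 22.4% and 23.0% of the cells with both keratins. With Krt14 alone its shares were 26.1%, 13.2%, 17.9%, 9.71% and 3.90%. The share was thus higher with both keratins in every library but fresh 10x 1, where Krt14 alone is 2 cells. The level of Csn3 had no common direction, with 35.4, 61.1, 74.1, 90.0 and 49.5 against 9.51, 85.3, 70.8, 78.6 and 113. Of the cells with Krt14 alone, 144 of 193 had 0 contractile UMIs, against 53 of 167 with both.

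**Figure D5:**
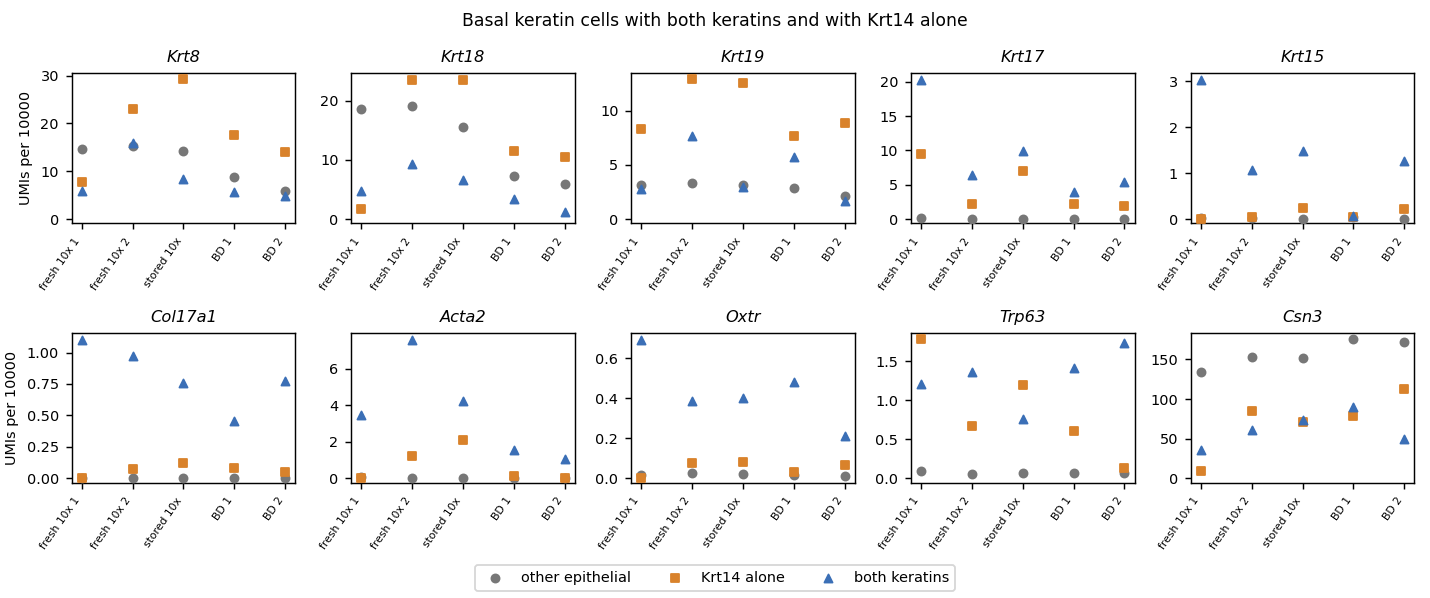
Level of 10 genes (y axis, UMIs per 10000, linear scale) in each library (x axis), in basal keratin cells with both keratins (triangles), in those with Krt14 alone (squares) and in the other epithelial cells (circles). Col17a1 and Acta2 are higher with both keratins and Krt8 and Krt19 are higher with Krt14 alone in 5 of 5 libraries.

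The epithelial gate left out some cells with as much basal keratin. There were 58 cells (6, 5, 16, 13 and 18 by library) that passed the score threshold of their library and failed the gate. Their Acta2 level was 16.2, 0.425, 12.0, 5.94 and 5.83 per 10000, above that of the basal keratin cells in 4 of 5 libraries, and their Krt8 level was 1.68, 1.27, 2.15, 1.02 and 0.972. Trp63 was found in 36 of them and 12 had 10 or more contractile UMIs, while 0 of 58 had Myh11, which allows a share of up to 5.17%. These cells are a description as well, and their number depends on the gate.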

How the data were processed

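The authors deposited UMI counts per gene and cell as whole numbers without normalisation. Per the submitters' processing notes, the mm10 genome and Cell Ranger 3.0.1 were used. How the BD reads were counted, which annotation was used and whether strand entered is not given in the sources used here. Drop-seq was not analysed here. The deposited cells were used without a further filter. No doublet caller was run, and cells of mixed type were left out in an alternative. The members and gene lists were chosen with earlier results of these data known.

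Counts were read in Python 3.11.15 (numpy 2.4.6, scipy 1.17.1) and summed per library over basal keratin and other epithelial cells. The 10 sums were fitted with edgeR 4.0.16 in R 4.3.3 with TMM scaling and the library as a block, since both kinds of cell come from the same library. Genes needed a mean of 20 CPM over the 10 sums and UMIs on both platforms. Tested on simulated data of 6003 genes with 200 changed, the fit recovered 97% at a log2 size of 1 and 99% at 2, with 0.155% false calls. Every gene was simulated with 1 common dispersion (spread between libraries) of 0.0162. These rates thus do not cover genes with a larger spread, such as those with most UMIs in 1 cell. DESeq2 1.42.0 was an alternative. Shares at equal depth are expected shares in 2000 UMIs drawn per cell, compared by an exact sign-flip permutation test. Positions come from GENCODE on GRCm38.

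Genes were named by a fixed rule: the rule genes with Acta2, Myh11 and Trp63, up to 5 most abundant genes and those past the threshold in each list, and the 10 largest rises and falls with 1 direction in all 5 libraries. Some genes under the minimum (Oxtr, Cnn1, Krt6a and others) were named after their values were seen, and some genes of the lists are not reported here. Alternatives changed the percentile, gate, minimum, depth, mitochondrial share, comparison cells, block and libraries, and 1 threshold for all libraries was added after seeing the data.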

Additional observations from a re-analysis of the deposited data

Results flagged for a closer look

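Krt18 and Epcam differed between the platforms in direction. The level in basal keratin cells minus that in the other epithelial cells was -13.9, -3.44 and -2.10 UMIs per 10000 for Krt18 in fresh 10x 1, fresh 10x 2 and stored 10x, and 1.65 and 1.47 in BD 1 and BD 2. The mean difference was thus 8.06 higher on BD. For Epcam, the epithelial adhesion gene, the differences were -7.70, -1.99 and -2.20 on 10x and 2.29 and 2.89 on BD, with a mean difference 6.55 higher on BD. Every 10x library moved one way and both BD libraries the opposite way. The difference was not tested, because both genes are part of the rule that chose the cells, and the median basal keratin cell held more Krt14 UMIs on 10x (20 to 49.5) than on BD (5 and 8). The part of that difference in these values was not tested.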

How the results depend on the processing

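Of the 93 named genes past the threshold, 56 kept their direction and their call in every alternative in which they were tested (Col17a1 fell below the minimum at the gate of 16), among them Acta2, Trp63, Krt17, Col17a1, Myl9, Tagln, Csn3 and Wap, and 37 lost the call in at least 1. The 2164 genes called became 3458 without the abundance minimum (1301 higher, 2157 lower) and 692 without the replicate block (440 higher, 252 lower), and ranged from 1618 to 1939 when 1 library was left out. DESeq2 called 944 higher and 1064 lower. Without the minimum, 185 genes passed for the platform interaction and 75 for storage, and without BD 2 there were 7 and 2. Fewer libraries and more genes tested are part of these settings, and otherwise the cause was not tested. The 58 cells outside the gate became 16 at a gate of 4 and 168 at a gate of 16 UMIs per 10000. Differences in shares of cells kept their direction in every alternative run, and no setting can pass 0.05 with 5 libraries.

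Some values reversed. With 1 score threshold for all libraries the log2 fold change was -0.052 for Cdh1, -0.014 for Krt19, -0.24 for Wnt5b, -0.92 for Col1a1, -0.58 for Col1a2 and -1.10 for Col3a1. At a gate of 16 it was -0.57 for Col1a1, -0.61 for Col1a2 and -0.70 for Col3a1, and with 1 library left out it ran from -0.22 (without fresh 10x 2) to 1.40 (without stored 10x) for Col3a1. Cartpt was 0.68 at the 95th percentile. The cause was not tested. Depth limits what can be said of Myh11 on BD, where 0 of 85 and 0 of 97 cells allow shares of up to 3.53% and 3.09%.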

Other observations

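Most basal regulators below the abundance minimum were also higher in the basal keratin cells, by 0.83 (Nt5e) to 7.71 (Wnt10a) on the log2 scale. In the edgeR fit without the minimum, 10 of the 11 such genes in the list were higher (5.59% of the 23284 genes in that fit), 0 were lower and Nrg1 did not pass. Wnt10a, a Wnt ligand gene, gave 39 UMIs in 16 basal keratin cells and 5 UMIs in 5 other epithelial cells. The p63 relative Trp73 gave 11 UMIs in 10 basal keratin cells, all with both keratins, and 3 UMIs in 3 other epithelial cells. Id4, an inhibitor of differentiation known from basal mammary cells, was at 0.270, 0.339, 0.162, 0.197 and 0.0218 per 10000 in the 5 libraries against 0.00665 to 0.00968 in the other epithelial cells. Its log2 fold change was 4.30 (adjusted p = 1.92e-08 by edgeR).

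Receptor and ligand genes followed. Fgfr2, a fibroblast growth factor receptor, was at 0.467, 0.237, 0.299, 0.244 and 0.207 per 10000 against 0.0144 to 0.0286, in 86 basal keratin cells. The Notch ligand Jag1 was at 0.738, 0.237, 0.333, 0.355 and 0.175 against 0.0184 to 0.0316, in 78 cells. Both were higher in 5 of 5 libraries without overlap, with log2 fold changes of 3.61 and 3.57 (adjusted p = 1.38e-10 and 5.72e-11 by edgeR without the minimum). These genes were named after their values were seen.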
